A study of Mus musculus with 6 samples.

Results

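Histones are the proteins that DNA is wound on in chromatin. Here 47 mouse histone genes were followed in oocytes that lack normal Brwd1, a gene for a protein with bromodomains and WD repeats, and in wildtype oocytes. The genes are those whose symbol starts with one of the stems of the histone nomenclature and that have a probe set with that symbol alone on the array, out of 19938 genes with such a probe set. Where a gene had several probe sets, the one with the highest mean level over the arrays was taken, a choice that does not use the difference between the genotypes. They fall into 8 linker histone genes, 16 H2A, 12 H2B, 4 H3 and 7 H4 genes. By name, 28 are replication-dependent genes and 19 are variants.

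There were 3 pools of oocytes from mice homozygous for a mutation of Brwd1, set against 3 pools from wildtype mice, all on a mixed B6/C3H background. All oocytes were at the germinal vesicle stage, the stage of arrest in which the oocyte stores the transcripts it will need after meiosis resumes. Each pool held 100 oocytes of females aged 2 to 6 months, collected 44 h after an injection of 5 IU equine chorionic gonadotropin, which makes follicles grow. The mutation was carried by the whole animal, so cells around the oocyte were mutant as well. The labels do not say that pools of a group came from separate animals. P-values therefore rest on the variation among the 6 pools, part or all of which may be technical.

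Replication-dependent histone genes lie mostly in clusters, and dividing cells use them in S phase, when new DNA needs nucleosomes. Their messenger RNAs end in a stem-loop that the protein SLBP binds, in place of the poly(A) tail of other messages. Variant histone genes are used outside S phase too, carry poly(A) tails in most cases, and give proteins with roles of their own. A growing oocyte does not replicate its DNA, but it stores histone messages and proteins for the first divisions of the embryo.

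A few upstream sequences of these genes are given before the levels. RefSeq's promoter table (build GRCm38.p6) had an entry for 41 of the 47 genes, and the 250 bases before each gene's start were searched on both strands. The 5 H4 genes below are shown because their promoters share an element at a nearly fixed place. Capitals mark GGTCCG, letters of the site that the factor HINFP binds in H4 promoters of human cells, and the sequence runs 5′ to 3′ over the 120 bases before the start of transcription.
H4c3 (chr13:23698459-23698578, minus strand): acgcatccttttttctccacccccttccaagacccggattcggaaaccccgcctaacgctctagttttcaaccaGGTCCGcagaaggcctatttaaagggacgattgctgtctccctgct
H4c4 (chr13:23581448-23581567, plus strand): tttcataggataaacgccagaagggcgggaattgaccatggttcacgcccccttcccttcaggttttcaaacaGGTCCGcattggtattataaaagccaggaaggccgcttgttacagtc
H4c6 (chr13:23551669-23551788, minus strand): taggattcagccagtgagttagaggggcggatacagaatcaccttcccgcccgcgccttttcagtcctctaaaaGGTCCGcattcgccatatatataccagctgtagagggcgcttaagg
H4c9 (chr13:22041363-22041482, minus strand): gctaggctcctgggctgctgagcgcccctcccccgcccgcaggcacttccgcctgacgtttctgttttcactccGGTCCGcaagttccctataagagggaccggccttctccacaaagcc
H4f16 (chr6:136804432-136804551, minus strand): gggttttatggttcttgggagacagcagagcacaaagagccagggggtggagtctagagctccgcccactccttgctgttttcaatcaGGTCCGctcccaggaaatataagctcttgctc
The first of these letters lies 46 bases before the start in H4c3, H4c6 and H4c9, 47 bases in H4c4 and 32 bases in H4f16. Of the H4 promoters with an entry, 5 of 6 held it, 83.3%, against 6.72% of all 32851 promoters. These letters were not in the window of H4c8.

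H2A and H2B genes often lie head to head and share 1 promoter. This is so for H2ac1 and H2bc1, which encode the H2A and H2B forms first known from testis (TH2A and TH2B) and stored in oocytes too. Their starts are 280 bases apart, on opposite strands, and 220 bases of the upstream windows are the same DNA. The window of H2ac1 (chr13:23934187-23934436, plus strand) is printed because both genes are described below. Capitals mark the octamer ATTTGCAT, the TATA element TATAAA and the element CCAAT, on either strand.
H2ac1: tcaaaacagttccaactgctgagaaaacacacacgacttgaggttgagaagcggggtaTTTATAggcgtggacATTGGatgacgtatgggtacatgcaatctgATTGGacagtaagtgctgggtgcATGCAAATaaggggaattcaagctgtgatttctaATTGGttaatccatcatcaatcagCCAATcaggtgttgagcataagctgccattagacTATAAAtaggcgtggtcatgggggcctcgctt
The octamer is bound by POU factors such as Oct-1 and is known from H2B promoters. It was in the windows of 8 of 11 replication-dependent H2A and H2B genes, 72.7%, against 1.60% of all promoters. Sites in the DNA that H2ac1 and H2bc1 share, this octamer among them, were counted for both genes. Sites of H2ac8 and H2bc8 also lay in mirrored places, as if on shared DNA, which was not tested. The octamer lay 128 bases before the start of H2ac8 and 59 before that of H2bc8, TATAAA 142 and 43. These were counted for both genes too, CCAAT included, so the 8 octamers are not 8 separate sites. CCAAT, found in 33.8% of all promoters, was in 11 of the 11 H2A and H2B genes and in 5 of 5 replication-dependent linker promoters. H2bc18, which had the largest difference among the 47 genes, holds the octamer and CCAAT in the 120 bases before its start (chr3:96269580-96269699, plus strand).
H2bc18: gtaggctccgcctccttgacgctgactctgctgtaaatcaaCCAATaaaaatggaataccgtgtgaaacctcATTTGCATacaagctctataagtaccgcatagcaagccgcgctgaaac
Of the 5 replication-dependent linker genes with an entry, 4 held the H1 box AAACACA, against 6.25% of all promoters. The same letters were in 4 of 11 replication-dependent H2A and H2B promoters, 36.4%, and so are not particular to linker genes. In H2ac1 and H2bc1 these letters are the same site. They lay 112 to 122 bases before the start in the linker genes H1f2, H1f3, H1f5 and H1f6. A match of letters is a description and not evidence of binding in oocytes.

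Levels are log2 values from Affymetrix arrays, so a difference of 1 is 2-fold. Brwd1, given as a check of the labels, was at 4.41, 4.56 and 4.50 in the mutant samples, against 8.91, 9.08 and 8.98 in the wildtype samples, which is -4.50 on the log2 scale (SE 0.071, adjusted p = 2.2e-06 by limma). Oocyte markers were far above background in all samples. Their per-sample medians lay between 11.36 and 11.39 in the mutant samples and between 11.40 and 11.46 in the wildtype samples. As a guide to background, the 95th percentile of 1210 probe sets for olfactory and vomeronasal receptor genes was used, which was 4.48. Markers of granulosa and cumulus cells had medians of 4.51 to 4.91 in the mutant samples and 4.50 to 4.83 in the wildtype samples, and 0 of 17 passed the test. Amh and Fshr, which define granulosa cells, averaged 4.41 and 4.28 in the mutant samples and 4.26 and 4.19 in the wildtype samples, all under the guide. Other markers of that list are above it, 11 of the 17 in all. Gata4 averaged 8.17 in the mutant samples and 7.87 in the wildtype samples without overlap (limma, adjusted p = 0.170), Has2 5.18 in the mutant samples and 4.69 in the wildtype samples with overlap, and Nr5a2 9.05 in the mutant samples and 8.89 in the wildtype samples with overlap. Ptgs2 went the other way, at 5.39 in the mutant samples and 5.96 in the wildtype samples without overlap (limma, adjusted p = 0.252). Inha averaged 4.69 in the mutant samples and 4.97 in the wildtype samples with overlap. Of 9 markers of theca and stroma and 10 of blood, immune and endothelial cells, 0 passed as well, with medians of 4.04 to 4.72 in the mutant samples and 3.96 to 4.56 in the wildtype samples. Col3a1, of the stroma list, averaged 4.76 in the mutant samples and 4.49 in the wildtype samples without overlap (limma, adjusted p = 0.167). Means were higher in the mutant samples for 12 of the granulosa and cumulus markers, 7 of the theca and stroma markers and 9 of the blood, immune and endothelial markers. Lower means were found for 4, 2 and 1 of them, in the same order. C1qb, a macrophage marker, averaged 6.90 in the mutant samples and 6.00 in the wildtype samples without overlap (limma, adjusted p = 0.162), while Ptprc, which marks white blood cells, averaged 3.93 in the mutant samples and 3.88 in the wildtype samples. Cd68, also of macrophages, averaged 5.11 in the mutant samples and 5.18 in the wildtype samples with overlap. The part of such cells in the results below was not tested.

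None of the 47 histone genes passed the test between mutant and wildtype oocytes (limma, Benjamini-Hochberg adjusted p under 0.05). Over all single-symbol genes 0.105% passed. The smallest adjusted p among the histone genes was 0.198, for H2ax. At an unadjusted p under 0.05, limma gave 8 histone genes with lower and 1 with higher values in the mutant samples, where 7.33% and 7.53% of all genes gave such values. This count was not stable: it was 2 lower and 3 higher without mutant 1, 4 and 0 without mutant 2, 13 and 0 without mutant 3, 4 and 0 without wildtype 1, 5 and 0 without wildtype 3, and 17 and 0 with median centring of the arrays. The mutant samples lay below every wildtype sample at 7 histone genes, where the share of all genes was 9.33%, and above every wildtype sample at 1, where it was 10.5%. In all, the mean was lower in the mutant samples for 30 genes, higher for 16 and equal for 1, and 45.5% of all genes had a lower mean. The median log2 difference was -0.0767 over the histone genes and 0.0133 over all genes. It was -0.148 without mutant 3, -0.132 without wildtype 2, -0.0467 without wildtype 3 and -0.025 without wildtype 1.

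**Figure D1:**
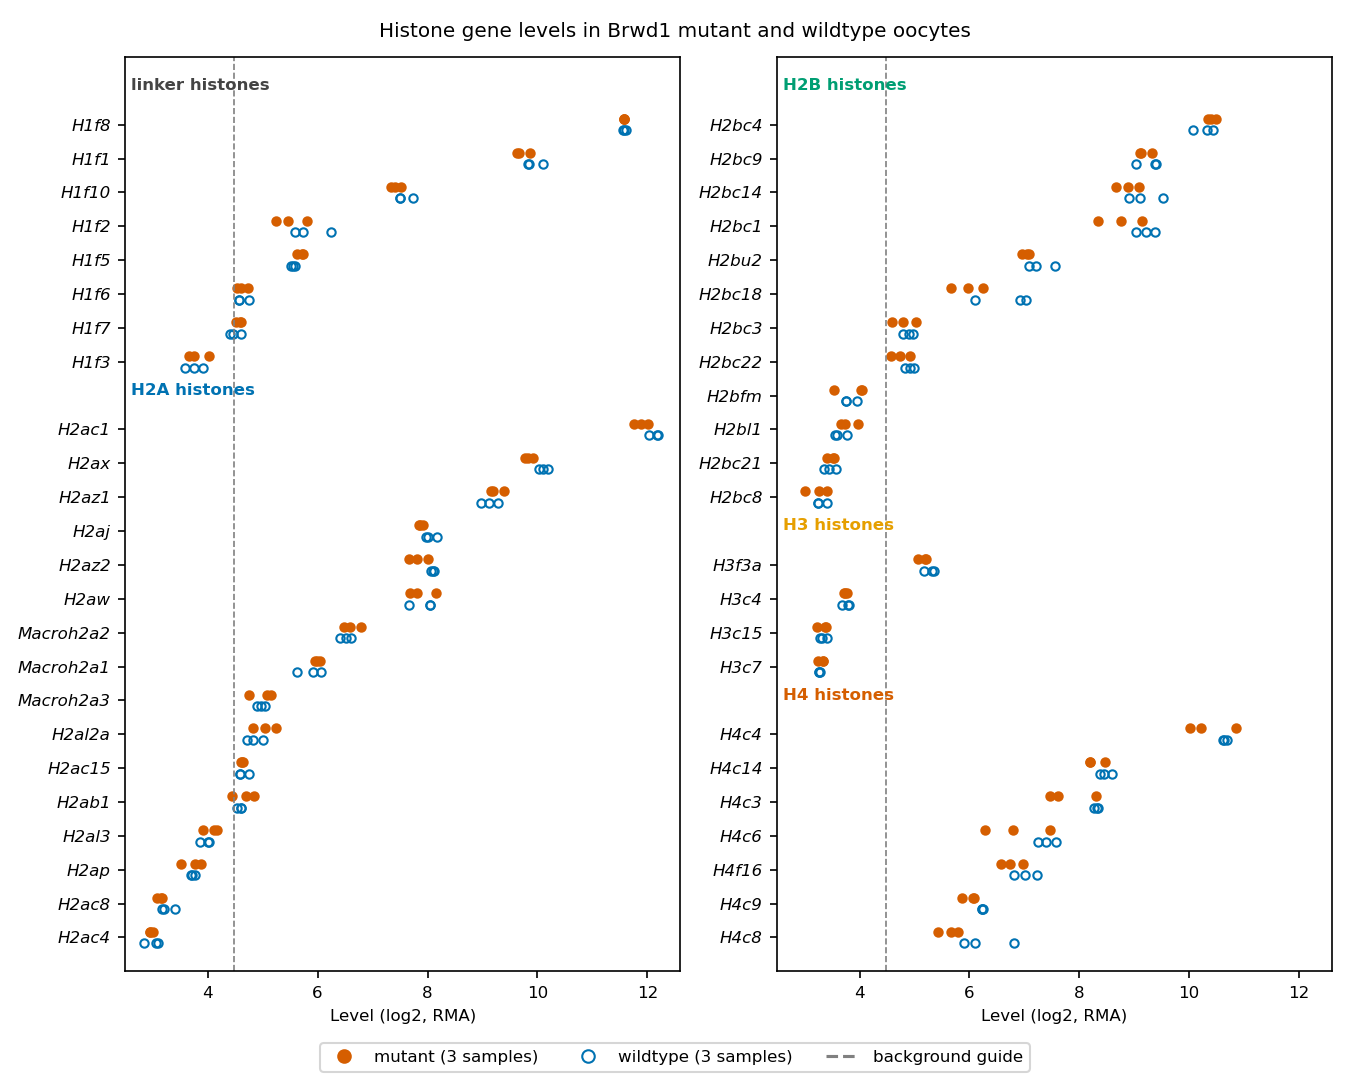
Level of each histone gene on the log2 scale (horizontal axis) in the 3 mutant samples (filled, upper points of a row) and the 3 wildtype samples (open, lower points), by class. The dashed line is the background guide of 4.48. 12 of the 47 genes have a mean at or under it, and the H4 genes H4c4, H4c3 and H4c6 have 2 mutant points below the wildtype points and 1 within or above them.

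The classes did not lean the same way. All 7 H4 genes had a lower mean in the mutant samples, with a median difference of -0.28. In the H2B class 8 of 12 genes were lower, with a median of -0.085, and in the H2A class 9 of 16, with a median of -0.0133. The linker genes were lower in 4 of 8 (median -0.00333) and the H3 genes in 2 of 4 (median -0.01). Of these H3 genes, 3 were not above the background guide. Probe sets that list several clustered genes, described below, had lower means in the mutant samples for H2A, H2B, H3 and H4 alike. Those of the testis variant H2A.L, at low levels, had higher means, as did 1 that lists an H2B and a linker gene. By kind, 21 of 28 replication-dependent genes and 9 of 19 variants had lower means, with median differences of -0.157 and 0.02. Among genes with a mean above the background guide, lower means were found in 17 of 20 replication-dependent genes, 8 of 15 variants and 50.5% of all genes. Whether one class differs from another was not tested, since the genes of a class share probes, samples and in part their sequence.

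**Figure D2:**
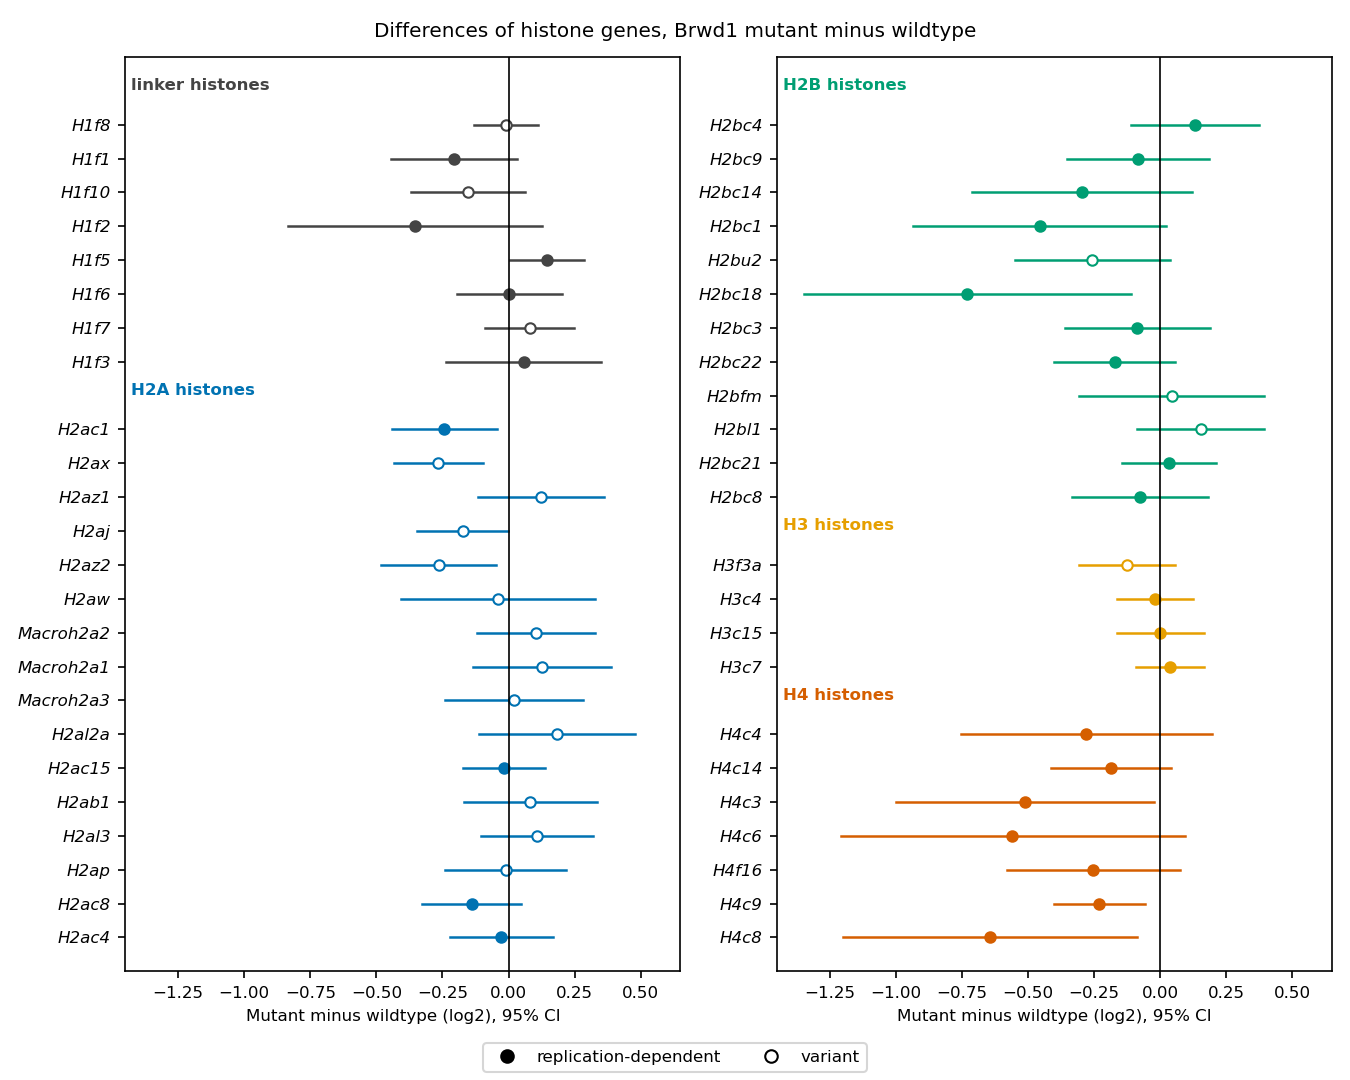
Mutant minus wildtype difference of each histone gene on the log2 scale (points) with its 95% confidence interval from limma (lines), filled for replication-dependent genes and open for variants. All 7 H4 points lie to the left of 0, H2bc18 lies farthest left at -0.73, and linker and H3 points lie around 0.

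H4, the histone that pairs with H3 in the core of the nucleosome, is encoded by many genes for the same protein. H4c3 was at 7.46, 7.62 and 8.31 in mutant 1, 2 and 3, against 8.27, 8.32 and 8.34 in wildtype 1, 2 and 3. The log2 difference was -0.51 (SE 0.206; limma, adjusted p = 0.317). Mutant 1 and 2 were low, while mutant 3 was within the wildtype range. H4c6 had the same arrangement, with 6.79, 6.28 and 7.46 in the mutant samples and 7.57, 7.40 and 7.24 in the wildtype samples. Its difference was -0.56 (SE 0.275; limma, adjusted p = 0.402). H4c4 was at 10.22, 10.01 and 10.85 in the mutant samples and at 10.68, 10.63 and 10.61 in the wildtype samples. Here mutant 3 was the highest of all 6 samples, and the difference was -0.28 (SE 0.200; limma, adjusted p = 0.558).

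At each of the 7 H4 genes mutant 1 and 2 lay below every wildtype sample, and the genes differed in where mutant 3 lay. Over all genes, mutant 1 and 2 lay below every wildtype sample at 2602 of 19938, and at 2098 of the 12662 above the background guide. Among the 3903 genes with a mean level above 8 they did so at 897. Setting mutant 3 apart was a choice made after the values were seen. H4c9 was at 5.87, 6.09 and 6.06 in the mutant samples, against 6.23, 6.23 and 6.25 in the wildtype samples, a difference of -0.23 (SE 0.0729; limma, adjusted p = 0.244). The groups did not overlap at H4c9. They did not overlap at H4c8 either, where the mutant samples had 5.67, 5.80 and 5.43 and the wildtype samples 5.90, 6.82 and 6.11. The size of that difference, -0.64 (SE 0.234; limma, adjusted p = 0.284), rests in part on the high value of wildtype 2, and it was -0.37 without that sample. H4c14, of the cluster on chromosome 3, was at 8.20, 8.20 and 8.46 in the mutant samples and 8.59, 8.45 and 8.38 in the wildtype samples (difference -0.19; limma, adjusted p = 0.418). H4f16, on chromosome 6, was at 6.58, 6.74 and 6.98 in the mutant samples and 7.23, 7.02 and 6.81 in the wildtype samples (difference -0.25; limma, adjusted p = 0.444). At both genes mutant 3 was within the wildtype range, as at H4c3 and H4c6.

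Single mutant samples decided much of the size of the H4 differences. Mutant 3 was the highest of the mutant samples at 5 of 7 H4 genes and at 22 of the 47 histone genes, where it was the highest at 30.6% of all genes. The median deviation of the 7 H4 genes from their means over the 6 arrays was -0.285, -0.18 and 0.087 in mutant 1, 2 and 3, against 0.21, 0.13 and 0.117 in wildtype 1, 2 and 3. Without mutant 3 the H4 median difference was -0.525, in place of -0.28, and no histone gene passed there either. The smallest adjusted p then was that of H4c3, at 0.0847 with a difference of -0.77 (limma). Leaving out another mutant sample made some differences smaller: H4c3 was at -0.34 without mutant 1, and H4c4 at -0.10 without mutant 2, against -0.52 without mutant 3. H4c8 did not follow this. It was at -0.66 without mutant 1, -0.73 without mutant 2 and -0.54 without mutant 3, against -0.64 with all samples. The H4 median difference was -0.21 without mutant 1 and -0.272 without mutant 2.

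**Figure D3:**
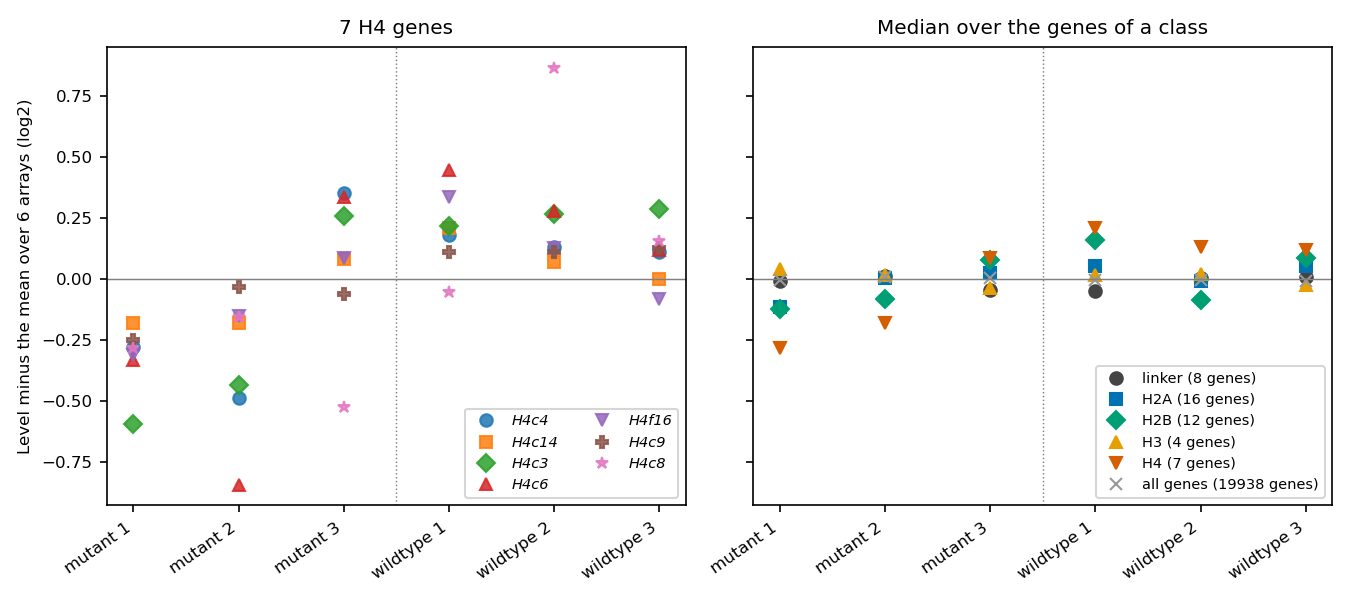
Left, level of each H4 gene minus its mean over the 6 arrays (log2) in the mutant samples and then the wildtype samples. Right, the median of such deviations over the genes of each histone class and over all genes. In mutant 1 and 2 every H4 point lies below 0, in mutant 3 the points run from below 0 to above it, and the medians of all genes stay near 0.

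Other probe sets on this array list several H4 genes at the same time and so name none. Their values are given without a gene name, and they are not among the 47. The 5 probe sets that each list 11 H4 genes, 4 of them with different values, had medians of 10.43, 10.42 and 11.12 in mutant 1, 2 and 3, against 11.15, 11.08 and 10.78 in wildtype 1, 2 and 3. Their differences ran from -0.36 to -0.33 (limma, adjusted p = 0.453 to 0.475). Mutant 1 and 2 were low and mutant 3 lay among the wildtype samples. Probes of near-identical copies can bind each other's transcripts, so these probe sets and the named H4 genes are not separate measurements.

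H2A genes include the largest number of variants. H2ac1, the testis and oocyte form shown above, was at 11.89, 11.76 and 12.01 in the mutant samples, against 12.19, 12.03 and 12.17 in the wildtype samples. All 3 mutant samples lay below the wildtype samples, though mutant 3 came close to wildtype 2, and the difference was -0.24 (SE 0.0839; limma, adjusted p = 0.270). H2bc1, across the shared promoter, was at 8.76, 8.34 and 9.15 in the mutant samples and 9.38, 9.03 and 9.21 in the wildtype samples. Its difference was -0.46 (SE 0.201; limma, adjusted p = 0.359), and mutant 3 lay within the wildtype range. It was -0.25 without mutant 2 and -0.66 without mutant 3. Mutant 2 was the lowest and mutant 3 the highest of the mutant samples for each gene of the pair.

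H2ax encodes the H2A form that is phosphorylated around DNA breaks. It was at 9.77, 9.92 and 9.83 in the mutant samples and 10.19, 10.02 and 10.11 in the wildtype samples, so the groups did not overlap. The difference was -0.27 (SE 0.0709, 95% confidence interval -0.435 to -0.0982; limma, adjusted p = 0.198). H2aj, another variant gene, did not overlap either, at 7.85, 7.91 and 7.87 in the mutant samples, against 8.18, 7.97 and 8.0 in the wildtype samples (difference -0.17; limma, adjusted p = 0.334). At both genes mutant 3 was close to the other mutant samples, unlike at H4c3 or H4c4.

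H2az1 and H2az2 encode the nearly identical forms of H2A.Z, a variant found at promoters, and their values pointed opposite ways. H2az2 was at 7.80, 7.67 and 8.01 in the mutant samples and 8.06, 8.10 and 8.11 in the wildtype samples, a difference of -0.26 (SE 0.0915; limma, adjusted p = 0.272) without overlap. H2az1 was at 9.15, 9.20 and 9.39 in the mutant samples and 9.11, 9.28 and 8.98 in the wildtype samples, a difference of 0.12 (SE 0.100; limma, adjusted p = 0.607) with overlap. The other probe set of H2az1 differed by 0.12 as well. The difference between the genes was not tested.

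The remaining H2A genes gave small differences. Macroh2a1 and Macroh2a2, for variants with a large extra domain that are known from the inactive X chromosome, differed by 0.13 and 0.10, and Macroh2a3, which RefSeq calls a transcribed pseudogene, by 0.02. H2aw, a gene of the third histone cluster on chromosome 11, differed by -0.04. H2al2a, H2ab1, H2al3 and H2ap belong to short H2A variants known from the testis, and had mean levels of 3.72 to 4.94 and differences of -0.01 to 0.18. H2ac15 differed by -0.02, with a mean level of 4.63. H2ac8 and H2ac4, at mean levels of 3.19 and 2.98, lay under the background guide, so that the lack of overlap at H2ac8 (difference -0.14; limma, adjusted p = 0.456) is between values that are not above background. Limma adjusted p-values of H2A genes ran from 0.198 to 0.969. The 2 probe sets that list 19 and 20 genes, nearly all clustered H2A genes, both differed by -0.19 (limma, adjusted p = 0.409 and 0.478). A further 12 probe sets that list 8 to 13 genes of the testis variant H2A.L, with mean levels of 3.76 to 4.49, differed by 0.04 to 0.17 (limma, adjusted p = 0.265 to 0.783). At 7 of them, some with identical values, every mutant sample lay above the wildtype samples, where the share of all genes was 10.5%. Low levels leaned this way over all genes too. Of the 7276 genes not above the background guide, 4473 had a higher and 2686 a lower mean in the mutant samples. At 692 of them every mutant sample lay above the wildtype samples. Of the 12 probe sets, 10 had different values, and their mean levels were under or close to the background guide. They share genes and probes, and another 2 with 2 such genes each differed by 0.09.

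H2B forms the dimer with H2A in the nucleosome. H2bc18, of the chromosome 3 cluster, had the largest difference of the 47 genes. It was at 5.97, 5.66 and 6.24 in the mutant samples, against 6.92, 7.03 and 6.11 in the wildtype samples. Wildtype 3 lay among the mutant samples, and the difference was -0.73 (SE 0.261; limma, adjusted p = 0.280). It was -1.02 without wildtype 3 (limma, adjusted p = 0.101) and -0.87 to -0.56 with any other sample left out, smallest in size without wildtype 2 (limma, adjusted p = 0.485). H2bc4 was at 10.34, 10.49 and 10.39 in the mutant samples and 10.43, 10.07 and 10.33 in the wildtype samples, a difference of 0.13 (SE 0.102; limma, adjusted p = 0.596) with overlap. H2bc4 is one of the replication-dependent genes whose mean was higher in the mutant samples.

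Of the others, H2bc9 was at 9.13, 9.11 and 9.32 in the mutant samples and 9.40, 9.04 and 9.37 in the wildtype samples (difference -0.08; limma, adjusted p = 0.769). H2bu2, of the third cluster, was at 7.05, 7.08 and 6.95 in the mutant samples and 7.56, 7.08 and 7.21 in the wildtype samples (difference -0.26; limma, adjusted p = 0.395). Its groups met at 7.08. H2bc14 was at 8.89, 8.66 and 9.09 in the mutant samples and 9.52, 8.90 and 9.11 in the wildtype samples (difference -0.30; limma, adjusted p = 0.479). H2bc22 differed by -0.17 and H2bc3 by -0.09. H2bc8 and H2bc21, together with H2bl1 and H2bfm, which are H2B variant genes known from the testis, had mean levels of 3.26 to 3.84, under the background guide. No H2B gene had groups without overlap. The 7 probe sets that list 14 or 15 genes, most of them H2B genes, had medians of 9.75, 9.68 and 10.13 in the mutant samples and 10.25, 9.94 and 10.09 in the wildtype samples. They differed by -0.29 to -0.20 (limma, adjusted p = 0.402 to 0.479), and mutant 3 again lay among the wildtype samples.

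Linker histones bind DNA where it enters and leaves the nucleosome. H1f8, the oocyte linker histone also called H1foo, had nearly the same level in all samples. It was at 11.57, 11.58 and 11.57 in the mutant samples and 11.58, 11.61 and 11.56 in the wildtype samples, a difference of -0.01 (SE 0.0515, 95% confidence interval -0.132 to 0.112; limma, adjusted p = 0.944). H1f1 was at 9.66, 9.63 and 9.86 in the mutant samples and 10.10, 9.83 and 9.84 in the wildtype samples (difference -0.21; limma, adjusted p = 0.397). H1f5 was the histone gene whose mutant samples all lay above the wildtype samples, with 5.63, 5.72 and 5.74 against 5.51, 5.59 and 5.55 (difference 0.15, SE 0.0591; limma, adjusted p = 0.319).

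H1f2 was at 5.46, 5.80 and 5.24 in the mutant samples and 5.59, 5.73 and 6.24 in the wildtype samples, a difference of -0.35 (SE 0.202; limma, adjusted p = 0.464) that is within the spread of its samples. H1f10 was at 7.34, 7.52 and 7.40 in the mutant samples and 7.74, 7.49 and 7.49 in the wildtype samples (difference -0.15; limma, adjusted p = 0.479). H1f6 and H1f7, linker histone genes of male germ cells, had mean levels of 4.62 and 4.53, close to the background guide, and differences of 0.003 and 0.08. H1f3 lay under the guide. A probe set that lists 1 H2B and 1 linker histone gene, and so names neither, was at 6.17, 6.21 and 6.39 in the mutant samples and 5.95, 5.88 and 5.92 in the wildtype samples (difference 0.34; limma, adjusted p = 0.152).

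H3 genes could hardly be followed by name. H3c4, H3c7 and H3c15 had mean levels of 3.29 to 3.75, all under the background guide. H3c4 was at 3.78, 3.73 and 3.71 in the mutant samples and 3.79, 3.81 and 3.68 in the wildtype samples (difference -0.02; limma, adjusted p = 0.904). H3c7 was at 3.34, 3.33 and 3.25 in the mutant samples and 3.28, 3.27 and 3.26 in the wildtype samples (difference 0.04; limma, adjusted p = 0.789). H3f3a, a gene of the variant H3.3 that is put into chromatin outside S phase, was at 5.06, 5.21 and 5.20 in the mutant samples and 5.32, 5.17 and 5.36 in the wildtype samples (difference -0.13, SE 0.0764; limma, adjusted p = 0.487). These values are from its probe set with the symbol alone. Probe sets that list H3f3a beside a predicted gene had far higher mean levels, 10.1 to 10.31, and are described below. H3c15 was at 3.39, 3.37 and 3.23 in the mutant samples and 3.28, 3.40 and 3.31 in the wildtype samples, with equal means. H3f3b had no probe set with its symbol alone.

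The shared H3 probe sets were well above background. The 10 that each list 12 clustered H3 genes had medians of 10.30, 10.24 and 10.64 in mutant 1, 2 and 3, against 10.64, 10.58 and 10.40 in wildtype 1, 2 and 3. They differed by -0.20 to -0.15 (limma, adjusted p = 0.494 to 0.653). Mutant 1 and 2 lay below the wildtype samples and mutant 3 level with the highest of them, the same arrangement as in the shared H4 probe sets. A further 6 probe sets list an H3.3 gene beside a predicted gene. For 4 of them, which list H3f3a and had mean levels of 10.1 to 10.31, the difference was -0.14 to -0.09, each without overlap (limma, adjusted p = 0.347 to 0.493). These 4 list the same 2 symbols at similar levels, so they are not separate measurements. The other 2, which list H3f3b, differed by -0.003 with overlap (limma, adjusted p = 0.985 and 0.986). At levels above 8, 18.7% of all genes had mutant samples below every wildtype sample.

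**Figure D4:**
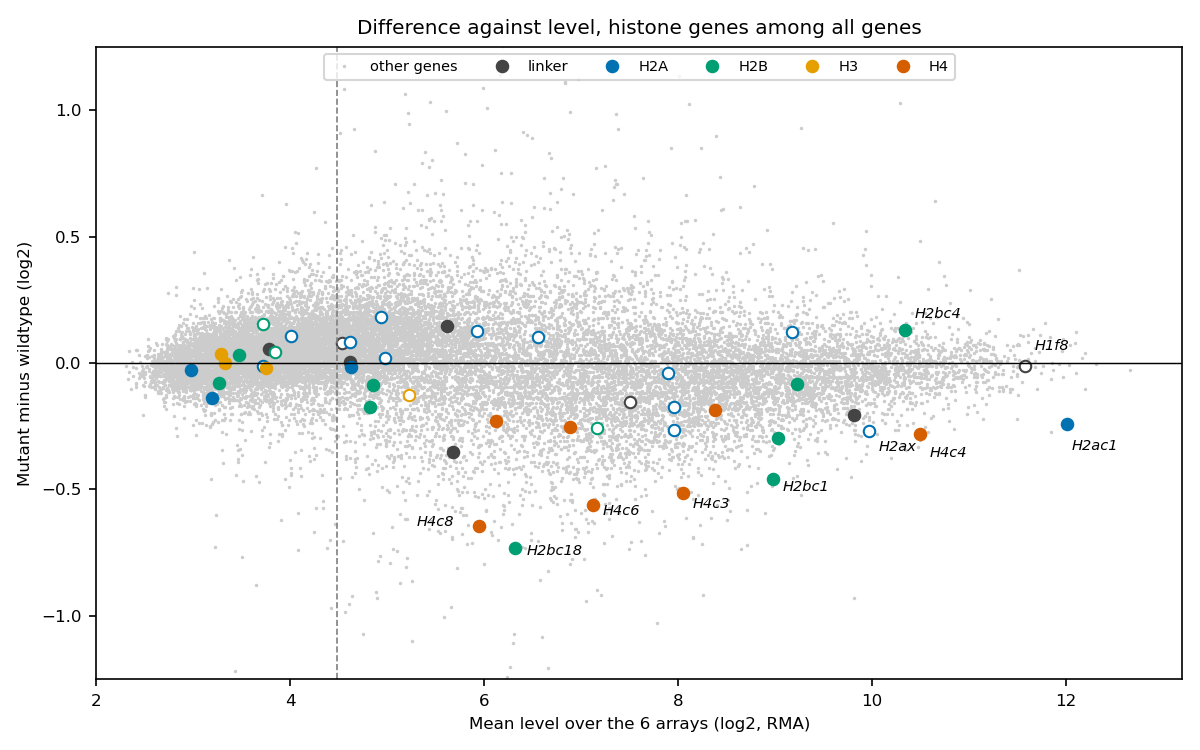
Mutant minus wildtype difference (vertical axis, log2) against the mean level over the 6 arrays (horizontal axis, log2) for the histone genes, coloured by class, filled for replication-dependent and open for variant genes, and for 19871 other genes (grey). A further 20 other genes lie beyond the axis, and the dashed line is the background guide. H4c8, H4c6, H4c3, H2bc18 and H2bc1 lie lowest among the histone genes, at -0.73 to -0.46, and H1f8 lies at -0.01.

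Level and difference were related over all genes, which bears on every count above. Of the 3903 genes with a mean level above 8, 63.1% had a lower mean in the mutant samples, and their median difference was -0.04. The mutant samples lay below every wildtype sample at 18.7% of them. The 12 histone genes above this level had lower means in 10 cases, lacked overlap in 2 and had a median difference of -0.225. The choice of this level was made after the values were seen.

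Replication-dependent histone messages need factors of their own, so 31 measured genes of histone transcription, 3′ end processing, translation and decay were set beside the histone genes. None of them passed (limma), where 0.105% of all genes did. At an unadjusted p under 0.05, 2 were lower and 1 was higher in the mutant samples, where the shares of all genes were 7.33% and 7.53%, and the median difference was -0.0267. The smallest p belonged to Lsm11, which encodes a subunit of the U7 particle that cuts histone pre-messenger RNA. It was at 6.69, 6.84 and 6.69 in the mutant samples and 7.23, 7.05 and 7.35 in the wildtype samples, without overlap. The difference was -0.47 (SE 0.0917; limma, adjusted p = 0.136), and it ran from -0.55 to -0.40 under the alternatives tried. Mutant 3 was as low as mutant 1 here.

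The partners of Lsm11 stood closer to 0. Lsm10, the other subunit that marks the U7 particle, was at 9.73, 9.59 and 9.62 in the mutant samples and 9.74, 9.70 and 9.56 in the wildtype samples (difference -0.02; limma, adjusted p = 0.921). Slbp was at 10.97, 11.03 and 11.05 in the mutant samples and 10.85, 11.05 and 10.93 in the wildtype samples (difference 0.07; limma, adjusted p = 0.663). Zfp473, whose human form links SLBP to the U7 particle, was at 6.77, 6.62 and 6.62 in the mutant samples and 6.89, 6.79 and 6.76 in the wildtype samples (difference -0.14; limma, adjusted p = 0.397). Npat, a coactivator of clustered histone genes, was at 6.60, 6.82 and 6.70 in the mutant samples and 6.18, 6.89 and 6.95 in the wildtype samples (difference 0.03; limma, adjusted p = 0.953). The values of Slbp and Npat overlapped between the groups. Upf1, an RNA helicase that takes part in histone message decay, differed by -0.18 (limma, adjusted p = 0.280), and Cstf2, a subunit of the cleavage machinery, by 0.28 (limma, adjusted p = 0.309), both without overlap. At 3 of the 31 genes every mutant sample lay below the wildtype samples, and at 2 above them. The shares of all genes were 9.33% and 10.5%. Hinfp, which encodes the factor of the H4 element printed above, was at 7.47, 7.51 and 7.50 in the mutant samples and 6.95, 7.83 and 7.66 in the wildtype samples (difference 0.01, 95% confidence interval -0.49 to 0.517).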

How the data were processed

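RNA of 6 oocyte pools was measured on Affymetrix mouse Gene ST arrays, 1 array a pool. Per the labels' protocols, 1 ng of total RNA was amplified as a whole transcriptome and labelled with biotin. The deposited values are log2 levels. The submitters' processing notes name Expression Console 1.1 and the RMA method, a background correction, between-array normalization and summary of each probe set. Such values cannot show a change of the total RNA per oocyte, and differences near background are compressed. Pearson's r across all probe sets was 0.994 to 0.995 within groups and 0.992 to 0.993 between groups.

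Of 35556 probe sets, 21789 had 1 gene symbol in the array annotation, 1621 several and 12146 none, and 47 of 47 histone symbols were found in RefSeq's gene table (GRCm38.p6). The 23410 probe sets with a symbol were fitted with limma 3.58.1 in R 4.3.3 (lmFit, eBayes, two-sided, no covariates, mutant minus wildtype). P-values were adjusted by Benjamini-Hochberg over all of them, with a threshold of 0.05. SE and intervals are those of the fit, with 3 samples a group. On simulated data of this design, with 200 of 23410 probe sets changed, 48.8% of differences of 0.5 and 90.8% of differences of 1 were recovered. The simulated spreads were drawn from a distribution fitted over all probe sets, and differences of 2 and 4 were planted too. In the data 32 probe sets passed. The rates are therefore not those of single histone genes, such as H2bc18 with an SE of 0.261.

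The histone genes and lists were chosen with earlier results of these data known. Replication-dependent are symbols starting H2ac, H2bc, H3c or H4c, H1f1 to H1f6 and H4f16; all others count as variants, among them H2aw and H2bu2 of the third cluster. Values per sample are given for the 2 highest levels and 3 smallest p-values of each class, H1f8, H2az1, H2az2 and H3f3a; for Slbp, Npat, Lsm10, Lsm11, Zfp473 and the 3 smallest p-values of the 33 genes listed for histone message supply; and for a few more, chosen after their values were seen. Alternatives were a replicate block, 3 normalizations, 2 filters, another variance model, the mean of a gene's probe sets and leaving out each array.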

Additional observations from a re-analysis of the deposited data

How the results depend on the processing

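No histone gene passed the test under any of the 14 alternatives, and the smallest adjusted p among them ran from 0.0847 to 0.325 (limma). At an unadjusted p under 0.05, 2 to 17 histone genes were lower. The count of probe sets past the threshold, 32 in all, was 15 with the mean of a gene's probe sets, 76 with a trended and robust variance, 1 with the replicate number as a block, and 1 to 18 with an array left out. With median centring 36 passed, 6 higher and 30 lower in the mutant samples, against 9 and 23 as deposited. Same-numbered samples were not paired, since their deviations correlated at -0.00146, -0.0314 and 0.0365. The H4 median difference was -0.525 to -0.21 with an array left out, the first without mutant 3. The other medians with an array left out ran from -0.148 to -0.025 for all histone genes, -0.182 to -0.0517 for H2B, -0.0292 to 0.0392 for H2A, -0.035 to 0.0225 for H3, -0.0533 to 0.0208 for linker genes, -0.212 to -0.102 for replication-dependent genes and -0.02 to 0.0917 for variants. With genes above the 25th percentile and above the background guide, the medians were -0.163 and -0.173 for all histone genes. Both filters gave -0.215 for H2B, -0.127 for H3, where 1 gene was left, and -0.237 for replication-dependent genes. For H2A they gave 0.02 and 0.00167, against -0.0133 with all genes. Median centring gave -0.0667 for H3 and -0.06 for linker genes. Counting H2aw and H2bu2 as replication-dependent, a choice made after seeing the data, gave -0.157 for that kind and 0.0433 for variants. Among named genes, the sign turned for H1f8 (0.01, cyclic loess), H3c7 (-0.02, median centring), Lsm10 (0.01, cyclic loess, and -0.07 to 0.02 with an array left out) and Npat (-0.02, median centring, and -0.21 to 0.17 with an array left out). The cause was not tested. With 3 arrays a group and values near background compressed, small differences could not be told from the spread.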
